A study of Mus musculus with 6 samples.

Results

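The ADAM genes encode membrane-anchored proteases with a disintegrin domain, and 10 of them were followed in NCU10K, a line of immortalized neural crest cells from the mouse, after Nedd4 knockdown. The genes were chosen by family name (Adam8, Adam9, Adam10, Adam12, Adam15, Adam17, Adam19, Adam22, Adam23 and Adam33), with earlier results of these same arrays in view, and all 10 were found among the 19933 genes that had a probeset of their own. Where a gene has several probesets, the one with the highest mean signal over the 6 arrays is used, but each of the 10 has only 1. Because the difference between the siRNAs was known when the list was drawn up, the members' values are given as a description and no p-value is attached to them. The members called are counted by the fit over all probesets, beside the share of probesets that it calls.

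Cells carried either control siRNA, a low GC control duplex, or Nedd4 siRNA, a single duplex against Nedd4, and RNA was taken after 48 h from 3 biological replicates per siRNA. Both groups were otherwise treated alike, in DMEM with foetal calf serum and with the same transfection reagent. Each replicate was hybridised to 1 Affymetrix mouse gene array, and all values below are the deposited log2 expression values, on which a difference of 1 is a doubling of signal. With 1 siRNA sequence and no rescue in the arrays, loss of Nedd4 and other effects of that duplex cannot be told apart. In cells treated with control siRNA, Nedd4 stood at 12.24, 12.35 and 12.34, and in those treated with Nedd4 siRNA at 10.45, 10.94 and 10.68. The groups did not overlap for this targeted ubiquitin ligase gene, which was 3.07-fold lower (log2 difference −1.62, SE 0.12, adjusted p = 3.16e-06 from limma; two-sided exact permutation test over arrays, p = 0.1, the smallest that 3 arrays against 3 allow). Array medians lay between 6.28 and 6.35, so the arrays were on 1 scale.

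The neural crest label was checked against 12 measured markers of neural crest and Schwann cells, of which 11 lay in the brighter 50% of all probesets, Sox10 and Snai2 among them, and Tfap2b in the dimmer 50%. All 5 measured markers of blood cells and macrophages and all 4 of endothelium lay in the dimmer 50%, as did 3 of 4 epithelial markers (all but Krt8), 3 of 4 neuronal ones (all but Tubb3) and 4 of 7 of smooth muscle and fibroblasts. This split used the mean over both siRNA groups. By control means alone, the crest marker Twist1 (6.22) and the smooth muscle and fibroblast markers Des (6.29) and Pdgfra (6.18) lay under its limit of 6.32. Over all probesets 8.14% were called higher with Nedd4 siRNA and 7.96% lower. Of the neural crest markers 2 were called higher, Sox9 (log2 difference 0.66) and Twist1 (0.31). Called lower were 6, including Sox10 (−0.43), Snai2 (−0.33) and Erbb3 (−1.14). Of the markers of smooth muscle and fibroblasts 2 were called higher and 0 lower. The neuronal marker Tubb3 was also called higher (0.35, adjusted p = 0.0119 from limma), and 0 markers of the other lists were called. The log2 of their summed signal was 13.78 to 13.83 in control and 13.40 to 13.53 in Nedd4 siRNA cells for neural crest, and 9.47 to 9.54 against 9.69 to 9.84 for smooth muscle and fibroblasts. The part of these shifts in the ADAM values was not tested, and in such bulk RNA fewer cells of a type and less RNA per cell cannot be told apart.

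ADAM proteins cross the membrane once and carry a prodomain, a metalloprotease domain, a disintegrin domain that can bind integrins, and a cytoplasmic tail. Convertases such as furin remove the prodomain, and the active enzymes then cut the outer parts of other membrane proteins from the cell surface, a process called ectodomain shedding. ADAM10 starts the cleavage of Notch receptors and cuts N-cadherin, a step known from neural crest cells leaving the neural tube, and ADAM17 releases tumour necrosis factor and ligands of the EGF receptor. ADAM22 and ADAM23 lack a working protease site and act as receptors for secreted LGI proteins, and the pair of LGI4 and ADAM22 is known for its role in the myelination of peripheral nerve.

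After Nedd4 knockdown the family did not move as 1 block. Of the 10 genes, 5 were called higher (Adam8, Adam9, Adam23, Adam17 and Adam15) and 1 lower (Adam19), while Adam10, Adam12, Adam22 and Adam33 were not called. Of all 28440 probesets 16.1% were called, 8.14% higher and 7.96% lower, but since the list was drawn up with this contrast known, nothing is read from the members' share. The differences ranged from −0.33 to 2.14 with a median of 0.23, against a median of −0.01 over all probesets. The 2 largest, those of Adam8 and Adam9, stood apart from the rest of the family, with Adam23 next at less than 1 on the log2 scale. The 3 control and 3 Nedd4 siRNA arrays did not overlap for 7 members, 5 higher and 2 lower, where 14.2% of all probesets did so upwards and 14.1% downwards.

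Adam8 and Adam23, with Adam17 and Adam15, are the genes called higher for which RefSeq promoters were given, each a window of 300 bases that ends 50 bases after a start site, and these are shown because the 4 genes moved in the same direction. They lie, in build GRCm38.p6, at chr7:139992513-139992812 on the minus strand (Adam8), chr1:63445641-63445940 on the plus strand (Adam23), chr12:21373583-21373882 on the minus strand (Adam17) and chr3:89349979-89350278 on the minus strand (Adam15). Capitals mark the GC box GGGCGG on either strand, a motif known to bind Sp1-type factors.
Adam8: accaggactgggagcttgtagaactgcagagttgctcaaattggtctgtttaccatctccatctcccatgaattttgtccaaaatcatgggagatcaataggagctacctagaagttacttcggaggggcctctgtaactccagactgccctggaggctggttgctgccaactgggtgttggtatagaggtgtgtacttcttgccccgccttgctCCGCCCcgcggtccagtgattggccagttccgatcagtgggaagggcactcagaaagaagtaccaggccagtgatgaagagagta
Adam23: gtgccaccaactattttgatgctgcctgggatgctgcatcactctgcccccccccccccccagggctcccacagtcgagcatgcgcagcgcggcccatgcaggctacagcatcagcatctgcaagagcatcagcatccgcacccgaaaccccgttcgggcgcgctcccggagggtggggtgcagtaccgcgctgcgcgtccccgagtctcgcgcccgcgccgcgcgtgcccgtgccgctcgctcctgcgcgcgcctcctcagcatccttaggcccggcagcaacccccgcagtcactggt
Adam17: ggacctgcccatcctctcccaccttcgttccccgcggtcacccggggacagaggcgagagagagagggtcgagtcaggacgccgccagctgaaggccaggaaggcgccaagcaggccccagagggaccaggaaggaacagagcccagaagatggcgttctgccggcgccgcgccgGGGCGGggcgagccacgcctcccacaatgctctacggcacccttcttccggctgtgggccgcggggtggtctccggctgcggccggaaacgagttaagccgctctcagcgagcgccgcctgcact
Adam15: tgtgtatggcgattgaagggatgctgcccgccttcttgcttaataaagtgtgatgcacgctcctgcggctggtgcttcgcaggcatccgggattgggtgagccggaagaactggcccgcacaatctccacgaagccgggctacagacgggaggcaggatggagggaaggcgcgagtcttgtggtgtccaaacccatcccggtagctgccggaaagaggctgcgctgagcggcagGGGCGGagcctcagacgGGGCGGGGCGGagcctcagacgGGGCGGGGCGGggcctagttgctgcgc

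The promoters of the called genes were unlike in composition. The Adam8 window was 52.3% G and C with 6 CpG pairs, close to the median of 52.7% and 7 over all 32851 listed promoters. Those of Adam23 (70.0%, 31 CpG), Adam17 (70.0%, 30 CpG) and Adam15 (65.3%, 25 CpG) were CpG-rich. So were those of Adam10 (73.3%, 32 CpG) and Adam22 (66.3%, 19 CpG), which were not called. The windows of Adam19, called lower, were 49.3%, 60.3% and 57.0% G and C with 5, 11 and 5 CpG. The GC box was found 1 time in Adam8, 1 time in Adam17, 5 times in Adam15 with overlapping copies counted, and 0 times in Adam23. Adam10 held 3 copies and Adam22 0. The GC box is in 35.7% of all listed promoters. The AP-1 motif TGANTCA, in 7.81% of promoters, and the TEAD motif GGAATG, in 14.7%, were searched on both strands. Neither was in the windows of Adam8, Adam23, Adam17, Adam15, Adam10 or Adam22. Of the 3 windows listed for Adam19, the gene called lower, 1 held both, together with a GC box. These are matches of letters only. For 3 members (Adam9, Adam12 and Adam33) no promoter was listed.

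Adam8 showed the widest difference. This sheddase is best known from leukocytes and from inflamed or invasive tissue, and it activates itself by cutting off its own prodomain. Control siRNA arrays gave 6.90, 6.87 and 6.84 and Nedd4 siRNA arrays 9.11, 8.99 and 8.94. The lowest Nedd4 siRNA array lay 2.04 above the highest control array, and replicates within a group differed by less than 0.2. Signal was 4.42-fold higher, from 6.87 ± 0.030 (SD, n = 3) to 9.01 ± 0.087 (SD, n = 3), a log2 difference of 2.14 (SE 0.087).

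Adam9 followed. Its product, also called meltrin gamma, is a widely expressed sheddase. The control arrays gave 9.10, 9.33 and 9.38 and the Nedd4 siRNA arrays 11.07, 11.11 and 11.05. All knockdown arrays were high and lay within 0.06 of each other, while control replicate 1 was the lowest of the 6. Signal was 3.50-fold higher, with a log2 difference of 1.81 (SE 0.096). The differences of Adam8 and Adam9 kept their call under each of 18 alternative settings. Leaving out any 1 array gave between 2.10 and 2.18 for Adam8 and between 1.72 and 1.86 for Adam9. These settings reuse the same arrays and are no independent check. With 1 probeset per gene, taking the mean of its probesets could not change either difference.

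**Figure D1:**
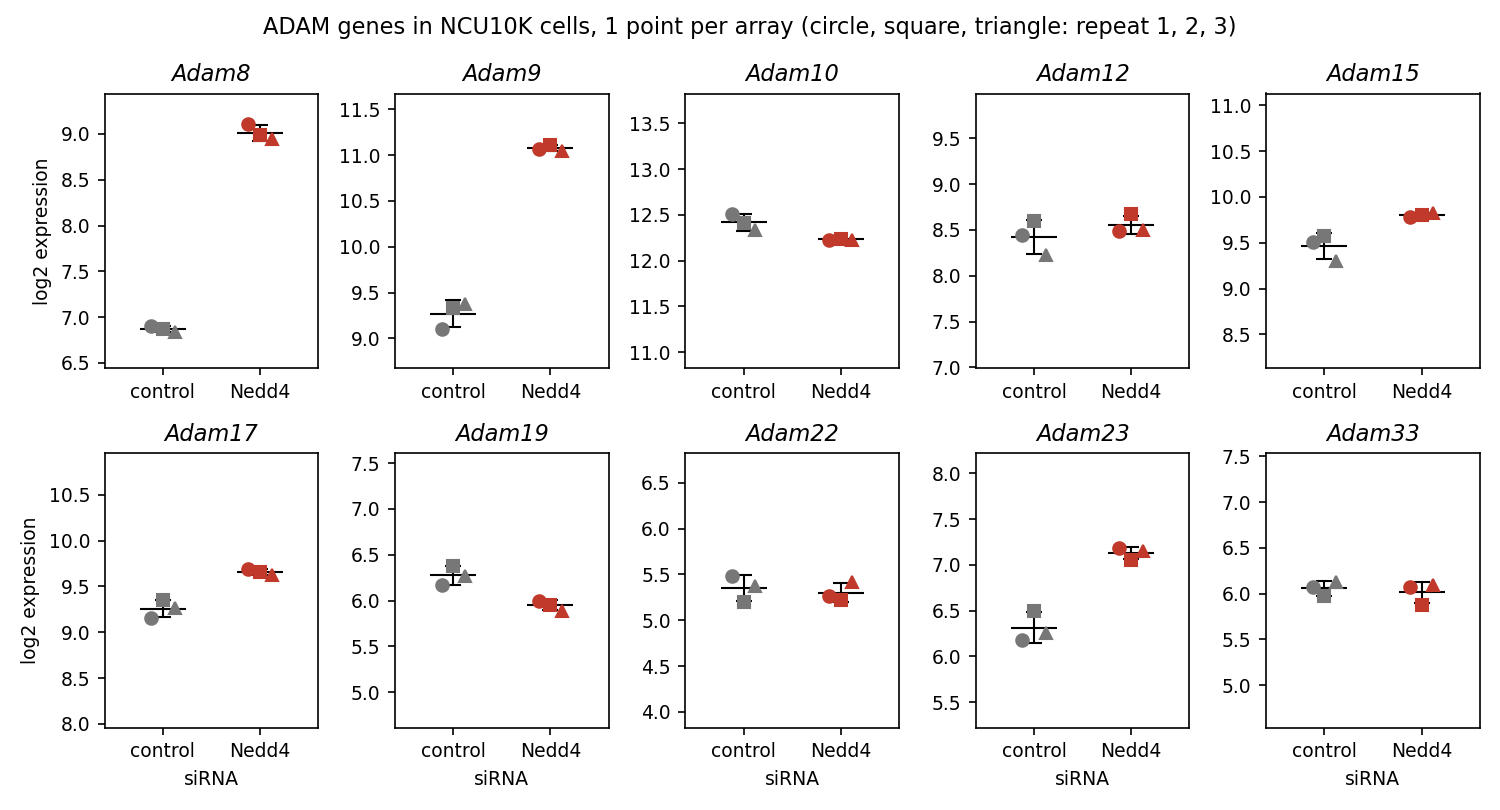
Log2 expression of the 10 ADAM genes in control siRNA (grey) and Nedd4 siRNA (red) arrays, 1 panel per gene and 1 point per array, with the mean and SD (n = 3) in black and the same span of 3 log2 units on every axis. Adam8 and Adam9 show the widest separation, at 2.14 and 1.81, while the points of Adam12, Adam22 and Adam33 overlap.

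ADAM10 and ADAM17 are the pair of sheddases with the broadest known substrate range. Adam17 gave 9.16, 9.35 and 9.26 with control siRNA and 9.69, 9.66 and 9.62 with Nedd4 siRNA. Every knockdown array was above every control array, by at least 0.27, and the gene was called higher with a log2 difference of 0.40 (SE 0.088), a 1.32-fold higher signal. Adam10 gave 12.51, 12.41 and 12.33 with control siRNA and 12.23, 12.24 and 12.23 with Nedd4 siRNA. Its control arrays all lay above its knockdown arrays, but the difference of −0.18 (SE 0.087) was not called. The difference between the Adam10 and Adam17 shifts was itself not tested.

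Adam15 encodes metargidin, an ADAM of adherens junctions and vessel walls. Its arrays read 9.51, 9.57 and 9.30 with control siRNA against 9.78, 9.80 and 9.82 with Nedd4 siRNA. The groups did not overlap, and control replicate 3 was the lowest. The log2 difference of 0.34 (SE 0.094) was called. It was not called without control replicate 3 (0.26) or without Nedd4 siRNA replicate 1, 2 or 3 (0.35, 0.34 and 0.33). Nor was it called by the methods' own test, an analysis of variance for each probeset on its own. Here and below, that test was run anew on the deposited values, and its results are not taken from the paper.

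The meltrins and Adam33 form a closely related branch of the family. Adam12 encodes meltrin alpha, known from fusing muscle cells and from bone and fat precursors, and its arrays gave 8.45, 8.60 and 8.23 against 8.49, 8.67 and 8.50. The groups overlapped, with a difference of 0.13 (SE 0.11). Adam19 encodes meltrin beta, known from the developing heart and peripheral nervous system.
Adam19 gave 6.17, 6.38 and 6.27 with control siRNA and 6.0, 5.95 and 5.89 with Nedd4 siRNA. All 3 knockdown arrays were lower, by at least 0.17, and the gene was called lower with −0.33 (SE 0.090), a 1.25-fold lower signal on a dim probeset. This call was absent without control replicate 2 (−0.27) or 3 (−0.33), without Nedd4 siRNA replicate 1 (−0.35), 2 (−0.33) or 3 (−0.30), and by the methods' own test.
Adam33, first known as an asthma susceptibility gene, gave 6.07, 5.97 and 6.13 against 6.07, 5.88 and 6.09. Its groups overlapped, with a difference of −0.04 (SE 0.094).

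Adam23 and Adam22 are the members without protease activity. Adam23, a neuronal adhesion receptor, gave 6.18, 6.50 and 6.26 with control siRNA and 7.18, 7.05 and 7.15 with Nedd4 siRNA. The groups were 0.55 apart at their nearest arrays, and the signal was 1.76-fold higher (log2 difference 0.81, SE 0.10), which was called in 17 of 18 alternatives; the exception required a difference of at least 1. Adam22 gave 5.48, 5.20 and 5.37 against 5.26, 5.22 and 5.42, with overlapping groups and a difference of −0.05 (SE 0.10), and the gap between the Adam23 and Adam22 shifts was not tested. Adam22 lay among the dimmest 25% of probesets by mean signal, and Adam19 and Adam33 among the dimmest 50%, so that 7 of the 10 members passed the stricter filter. That filter used the mean over all 6 arrays. Adam23 passed it at 6.72, although its control mean of 6.31 lay under the limit of 6.32. This alternative is therefore no independent check of the Adam23 call. For a dim probeset, RNA near the background and a steady low level cannot be told apart.

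Within groups the SD of the 10 genes over 3 arrays ran from 0.0058 to 0.19. Its median was 0.12 in control siRNA and 0.062 in Nedd4 siRNA arrays, beside a median residual SD of 0.12 over all probesets. The genes whose values over the 6 arrays were most like those of Adam8 by Pearson's r were B630019K06Rik (0.9997), Smurf2 (0.9996), which encodes another ligase of the NEDD4 family, and Trp53inp1 (0.9994). Those most like Adam9 were Ide (0.9994), Anln (0.9992) and Acvr1 (0.9989). Their own log2 differences were smaller than those of the 2 ADAM genes, at 0.97, 0.69 and 1.08 for the former 3 and 0.38, 0.45 and 0.53 for the latter. An r above 0.99 was reached by 164 of 19932 genes for Adam8 and by 147 for Adam9, as 6 arrays in 2 groups set such values largely by the group difference.

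The rest of the family was mostly dim and not called. Of 24 other ADAM genes, many of them known from the testis and sperm, 22 lay in the dimmer 50% of probesets, 0 were called higher and 1 lower, with a median difference of −0.04, where 8.14% and 7.96% of all probesets were called and their median was −0.01. The gene called was Adamdec1, which encodes a secreted, shortened ADAM-like protease. Its arrays read 6.61, 6.66 and 6.70 with control siRNA and 6.03, 6.05 and 6.10 with Nedd4 siRNA. The groups lay 0.51 apart, and the log2 difference was −0.60 (SE 0.083, adjusted p = 0.000344 from limma).

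**Figure D2:**
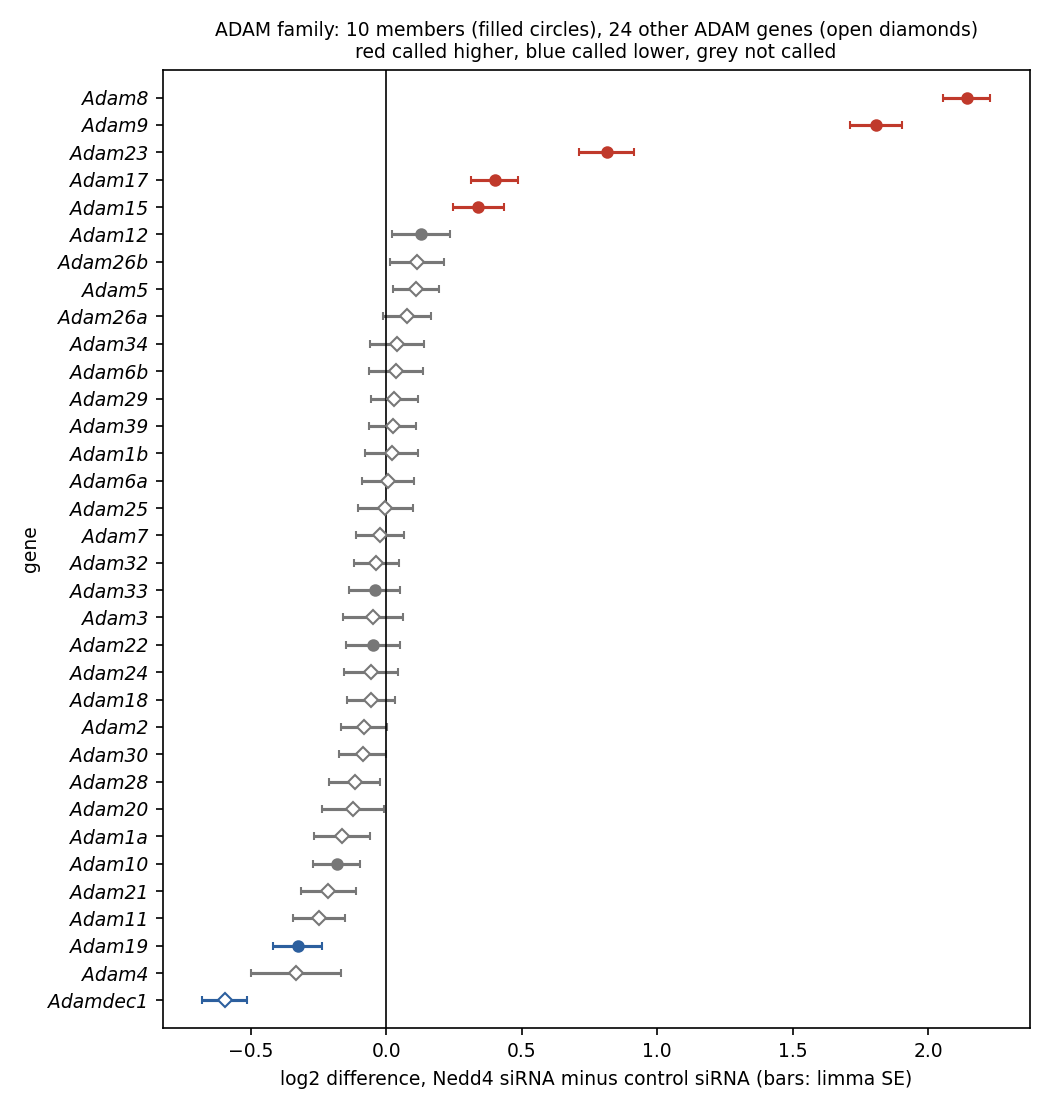
Log2 difference of Nedd4 siRNA minus control siRNA for 34 ADAM genes, sorted, with limma's SE as bars (3 arrays per group). Filled circles are the 10 members and open diamonds the 24 other ADAM genes; the values run from −0.60 for Adamdec1 to 2.14 for Adam8.

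ADAM proteases depend on escorts for their way to the cell surface, and the genes of these escorts moved in both directions. Of 9 genes for iRhoms, which carry ADAM17, for the iRhom partner Frmd8, and for TspanC8 tetraspanins, which carry ADAM10, 1 was called higher and 3 lower, with a list median of −0.16. Tspan15 gave 9.55, 9.65 and 9.43 with control siRNA and 8.28, 8.59 and 8.29 with Nedd4 siRNA. Tspan14 gave 10.71, 10.78 and 10.55 against 9.62, 9.87 and 9.67. Both pairs of groups were far apart, with differences of −1.16 for Tspan15 (SE 0.11, adjusted p = 1.65e-05) and −0.96 for Tspan14 (SE 0.10, adjusted p = 4.20e-05) from limma. Tspan5, of the same group, rose (0.55, SE 0.090, adjusted p = 0.00109), and its arrays did not overlap. Among the iRhoms, Rhbdf1 fell (−0.54, SE 0.10, adjusted p = 0.00281), although not by the methods' own test (adjusted p = 0.0733). Rhbdf2 read 6.47, 6.73 and 6.59 against 6.93, 6.98 and 6.67 and was not called.

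Genes of prodomain removal were lower where called. Of 4 proprotein convertases, 0 were called higher and 2 lower, with a median of −0.24. Furin had a log2 difference of −0.38 (SE 0.092, adjusted p = 0.0128) and Pcsk6 of −0.42 (SE 0.11, adjusted p = 0.0168) from limma. Neither call was made by the methods' own test (adjusted p = 0.0742 and 0.151). Furin was not called without Nedd4 siRNA replicate 1 (adjusted p = 0.0663) or 3 (0.0531). Pcsk6 was not called without control replicate 1 (adjusted p = 0.0528) or 2 (0.0634) or without Nedd4 siRNA replicate 1 (0.0901) or 3 (0.0652).

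Of 5 genes for metalloprotease inhibitors, 1 was called higher and 2 lower, with a median of −0.16. Timp3, which encodes the tissue inhibitor known to block ADAM17 and ADAM10, gave 12.95, 13.00 and 12.94 with control siRNA and 12.24, 12.34 and 12.12 with Nedd4 siRNA. All knockdown arrays were lower, with a difference of −0.73 (SE 0.090, adjusted p = 0.000138 from limma). Reck, a membrane-anchored inhibitor, gave 9.37, 9.30 and 9.21 against 8.43, 8.49 and 8.41, a difference of −0.85 (SE 0.087, adjusted p = 3.59e-05). Timp1, an inhibitor of ADAM10 and of many matrix metalloproteases, went the other way at 10.26, 10.42 and 9.78 against 11.07, 10.88 and 10.99. The groups did not overlap and the difference was 0.83 (SE 0.14, adjusted p = 0.00133 from limma), though control replicate 3 was far below its group and the methods' own test did not call it (adjusted p = 0.105). Timp2 (0.11) and Timp4 (−0.16) were not called.

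Proteins that bind ADAM tails through SH3 and other adaptor domains had 4 of 13 genes called higher and 1 lower, with a median of 0.20. The count called higher was 1 without Nedd4 siRNA replicate 1 or 3, 2 without Nedd4 siRNA replicate 2 or control replicate 3, and 2 by the methods' own test. Snx18, a sorting nexin, rose (0.78, SE 0.085, adjusted p = 5.97e-05 from limma), and Sh3pxd2a, which encodes the podosome scaffold TKS5, fell (−0.66, SE 0.092, adjusted p = 0.000333). Dlg1, for a scaffold that binds ADAM10 (0.32, adjusted p = 0.0216), and Sh3d19, for a binding partner of several ADAM tails (0.32, adjusted p = 0.0268), were called higher. Leaving out Nedd4 siRNA replicate 1 ended the calls of Dlg1 (adjusted p = 0.116) and Sh3d19 (adjusted p = 0.092), and so did Nedd4 siRNA replicate 2 (0.0552 and 0.0771) or 3 (0.052 and 0.0744). Dlg1 was also lost without control replicate 2 (0.058) or 3 (0.0612), and Sh3d19 without control replicate 1 (0.0913) and by the methods' own test (0.0717).

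**Figure D3:**
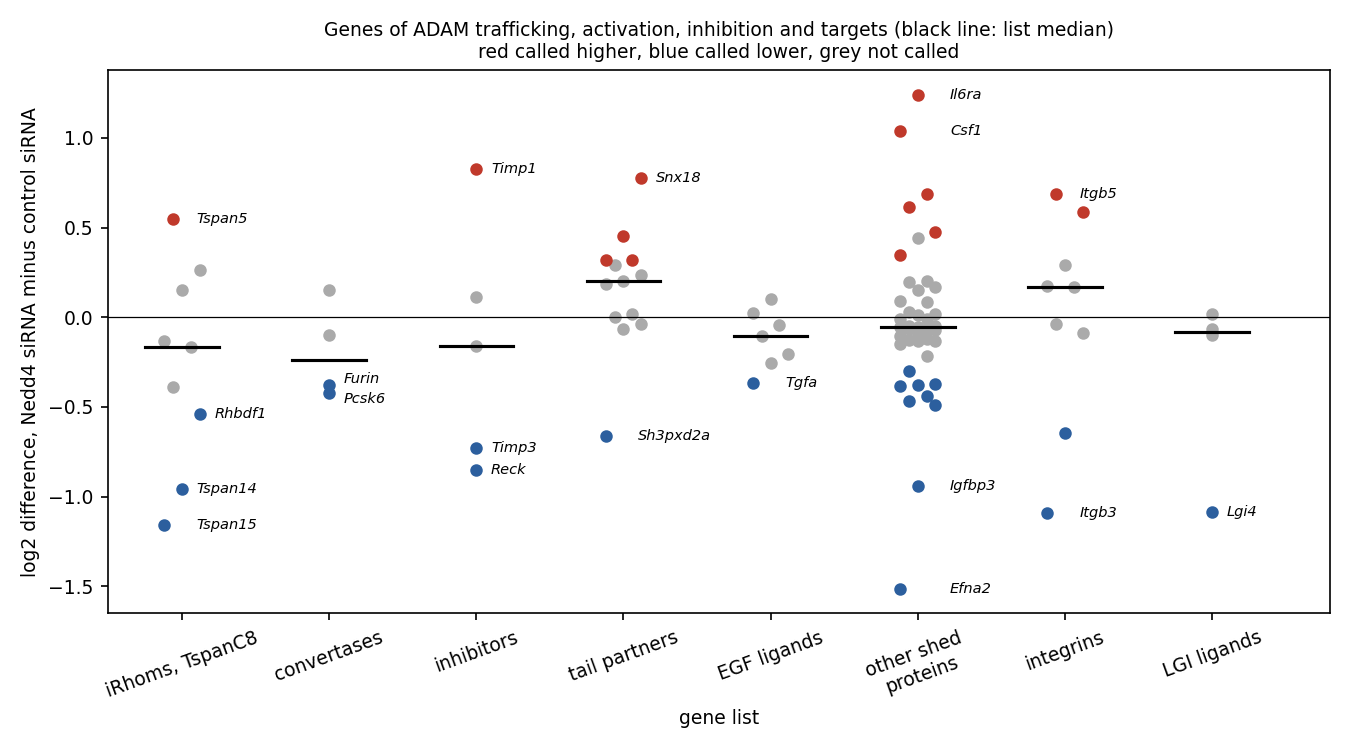
Log2 difference of Nedd4 siRNA minus control siRNA for each measured gene of 8 lists tied to ADAM proteases, 1 point per gene, coloured red where called higher, blue where called lower and grey where not called; black lines are list medians. Called genes lie on both sides of 0 in the lists of escorts, inhibitors, tail partners, other shed proteins and integrins, from −1.51 for Efna2 to 1.24 for Il6ra.

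The known targets of shedding and other cleavage showed no common direction. Of 7 measured EGF family ligands, 0 were called higher and 1 lower, with a median of −0.11. Without control replicate 2 the count called lower was 2. The gene called was Tgfa, for a ligand that ADAM17 releases (−0.37, SE 0.090, adjusted p = 0.0135 from limma), which was not called without Nedd4 siRNA replicate 1 (adjusted p = 0.0773) or 3 (0.0534) or by the methods' own test (0.0613). Of 42 other shed proteins, a list that also holds secreted proteins that are cut, such as that of Igfbp3, 6 genes were called higher and 9 lower. The list median was −0.06. The count called lower was 5 without control replicate 2 and 4 by the methods' own test. Il6ra, the interleukin 6 receptor that ADAM17 and ADAM10 release, gave 7.07, 7.39 and 6.97 with control siRNA and 8.53, 8.48 and 8.14 with Nedd4 siRNA. Its groups did not overlap and it rose by 1.24 on the log2 scale (SE 0.13, adjusted p = 4.22e-05 from limma). Csf1, a growth factor of macrophages with a membrane-bound form, rose (1.04, SE 0.088, adjusted p = 9.66e-06). Efna2, the ephrin whose cleavage by ADAM10 is a textbook case, fell with the largest difference of the list, from 8.15, 8.44 and 8.48 to 6.79, 7.09 and 6.65 (−1.51, SE 0.13, adjusted p = 7.93e-06 from limma). Igfbp3, a binding protein of insulin-like growth factors that ADAM12 cuts, also fell (−0.94, SE 0.10, adjusted p = 6.0e-05).

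Binding partners of the disintegrin domain and of the protease-dead members were called in part. Of 9 integrin genes 2 were called higher and 2 lower, with a median of 0.17. Itgb5 (0.69, SE 0.087, adjusted p = 0.000177) and Itga3 (0.59, SE 0.099, adjusted p = 0.00123) rose, and Itgb3 (−1.09, SE 0.12, adjusted p = 6.67e-05) and Itga6 (−0.64, SE 0.090, adjusted p = 0.000339) fell from limma. The methods' own test did not call Itga3 (adjusted p = 0.0504). Of 4 LGI genes, 3 lay among the dimmest 25% of probesets and were not called. The remaining gene, Lgi4, whose protein is made by Schwann cells and binds ADAM22 and ADAM23, gave 8.37, 8.57 and 8.21 with control siRNA and 7.32, 7.32 and 7.26 with Nedd4 siRNA. All knockdown arrays were lower, with a difference of −1.08 (SE 0.10, adjusted p = 1.93e-05 from limma), where Adam23 was called higher and Adam22 was not called. In all, 36 of the 117 measured genes of these lists and the other ADAM genes (30.8%) were called, 14 higher and 22 lower, where 16.1% of all probesets were called, 8.14% higher and 7.96% lower. These lists too were chosen with the contrast known, and nothing is read from their share.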

How the data were processed

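The values analysed are log2 expression of 28440 probesets, as deposited. The authors made them from the array scans with Partek Genomics Suite (version 6.5 per the labels), using RMA for background, correcting for GC content and averaging the probes of a probeset. The genome build of the probesets is not given in the sources used here. The platform annotation gave 1 symbol to 21780 probesets, several to 1618 and none to 5042, and all 10 member symbols matched RefSeq by gene identifier. Control and Nedd4 siRNA arrays were set against each other in limma (3.58.1, R 4.3.3; lmFit and eBayes without covariates, two-sided). P-values were adjusted by Benjamini-Hochberg over every probeset, and calls were made under 0.05. Counts, the permutation test and figures used Python 3.11.15, pandas 2.3.3, NumPy 2.4.6, SciPy 1.17.1 and Matplotlib 3.10.9. The fit was tested on simulated data. Precision is set by the number of arrays, with a median residual SD of 0.12. The labels describe the replicates as separate experiments, so p-values measure the spread between these experiments in 1 cell line.

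The members, the 9 related lists and the markers were chosen with earlier results of these data known. Named were all members, Nedd4, up to 4 called genes per list by smallest p, the 3 genes most like each of the 2 members with the widest difference, and markers that bear on the label. Frmd8, Rhbdf2, Timp2 and Timp4 fall outside these choices and were picked once their values were known. Alternatives changed the test (the methods' analysis of variance, a trended and robust eBayes, weights per array, a block for the replicate number), the scaling (quantile or median), the probesets tested (leaving aside the dimmest 25% or 50%, or those without exactly 1 symbol), the summary of several probesets per gene (their mean), the threshold (0.01, or a log2 difference of 1 or more) and the arrays (each left out in turn). Promoters came from RefSeq, build GRCm38.p6. Protein sequences were not analysed here.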

Additional observations from a re-analysis of the deposited data

How the results depend on the processing

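The count of members called higher stayed at 5 or moved to 4 in the settings tried, except for 2 (Adam8 and Adam9) where a log2 difference of at least 1 was required. The count called lower, Adam19 alone, was 0 by the methods' own test, without the dimmest 50% of probesets, where it was not tested, at an adjusted p under 0.01 and with a log2 difference of at least 1. Leaving out single arrays gave 4 to 5 members higher and 0 to 1 lower, 2962 to 4312 probesets past the threshold (2962 without Nedd4 siRNA replicate 1) and 26 to 35 related genes called. Against 4579 probesets in the main fit, 2134 passed by the methods' own test, 2881 at an adjusted p under 0.01 and 299 with a log2 difference of at least 1. Against 36 related genes called in the main fit, 21 were called by the methods' own test and 6 with a log2 difference of at least 1. Each setting was counted anew, so the 21 need not all be among the 36. The cause was not tested. Of 324 counts recomputed for single lists, 288 stayed within 1.5 times, where a count of 0 in both fits was taken as unchanged. The counts called higher of other ADAM genes, proprotein convertases, EGF family ligands and LGI ligands were 0 in every setting. Samples with the same repeat number correlated at −0.01, 0.47 and −0.01 in their deviations from the group means. Those with other numbers ran from −0.43 to 0.42. With 3 arrays per group such values cannot decide whether samples of the same number were paired. With the replicate block 4962 probesets and 38 related genes were called, and 5 members higher and 1 lower. Nedd4 differed by −1.74 to −1.50 without single arrays.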
